A study of Mus musculus with 8 samples.

Results

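Growth and angiogenic factors are the secreted proteins through which a macrophage acts on tumor cells, vessels and stroma, and 10 of their genes were followed in sorted tumor-associated macrophages (TAMs): Igf1, Vegfa, Vegfb, Pdgfa, Pdgfb, Pdgfc, Hgf, Tgfb1, Csf1 and Grn. They were taken by gene symbol from the 21051 genes that the deposited tables list. All 10 had values, and all 10 passed the filter on low counts that left 12412 genes for testing. The libraries came from the CD45+F4/80+ cells that flow sorting recovered from subcutaneous B16 melanomas of C57BL/6 mice on day 14 after injection. Of the libraries, 4 were from wild-type hosts (TAM-WT) and 4 (TAM-KO) were from Colec11-/- hosts, which lack collectin-11, a soluble C-type lectin of the complement system. The study describes its animals as young adult males, with WT littermates as controls. The deletion is constitutive, so every cell of the host lacks the gene, while the injected B16 cells are the same in both groups. The question for this set of genes is whether TAMs from the 2 kinds of host differ in the factors they transcribe.

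Most of these ligands act through receptor tyrosine kinases, and TGF-β1 acts through receptor serine/threonine kinases. IGF-1 signals through IGF1R to PI3K and MAPK and favors survival and growth of many tumor cells. VEGF-A, induced by hypoxia, drives endothelial sprouting through VEGFR2, and VEGF-B binds VEGFR1. The PDGF ligands recruit fibroblasts and pericytes, HGF is the ligand of MET, and TGF-β1 is made in a latent form that must be released before it can signal through Smads. CSF-1 maintains macrophages themselves, and progranulin, the product of Grn, is a lysosomal and secreted protein with growth factor activity.

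The unit used for levels is FPKM, which divides the fragments of a gene by its length and by the mapped fragments of the library, so that levels of different genes can be set side by side. Reads on genes ran from 16225362 to 17280267 in the 7 libraries with complete tables. The table of TAM-KO replicate 1 lacked an unbroken run of 5311 genes that held Igf1, Hgf, Csf1 and Grn. A table of the whole series gave TAM-KO replicate 1 for Igf1 but not for the other 3, which therefore have 3 TAM-KO values. The test of these 4 genes used 7 libraries, without TAM-KO replicate 1. Colec11 itself had 0 to 4 counts in every library, too few to check the genotype. Adgre1 and Ptprc, which encode the F4/80 and CD45 used for sorting, were at 182 to 239 FPKM and at 39.1 to 88.7 FPKM, and all 12 genes of a macrophage marker list were detected. TAM-WT replicate 1 stood apart from the other TAM-WT libraries in T cell, NK cell and B cell markers, so Igf1 and Pdgfc were also tested without it.

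The levels of the 10 factors covered a wide range. Grn was the highest, with a mean of 1279 FPKM over 7 libraries (range 1106 to 1457), and by its TAM-WT mean it was 58th of the 16786 genes with values. Tgfb1 followed with a mean of 197 FPKM over 8 libraries (range 167 to 224). Neither range touched that of the next factor. Vegfa (mean 51.9 FPKM), Vegfb (49.7 FPKM) and Igf1 (34.9 FPKM) came next, and neighbors in this order overlapped. Pdgfc (10.9 FPKM), Pdgfb (10.7 FPKM), Csf1 (9.51 FPKM) and Pdgfa (8.84 FPKM) followed and overlapped as well, and the lowest Igf1 library, at 13.7 FPKM, was below the highest Pdgfc library, at 14.2 FPKM. Hgf was the lowest, at 2.87 to 5.69 FPKM, with its range below that of Pdgfa. The order was not the same in both groups. Igf1 lay among Vegfa and Vegfb in TAM-WT, while in TAM-KO its highest library, at 29.4 FPKM, was below the lowest Vegfa library, at 42.0 FPKM, and the lowest Vegfb library, at 50.4 FPKM.

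**Figure D1:**
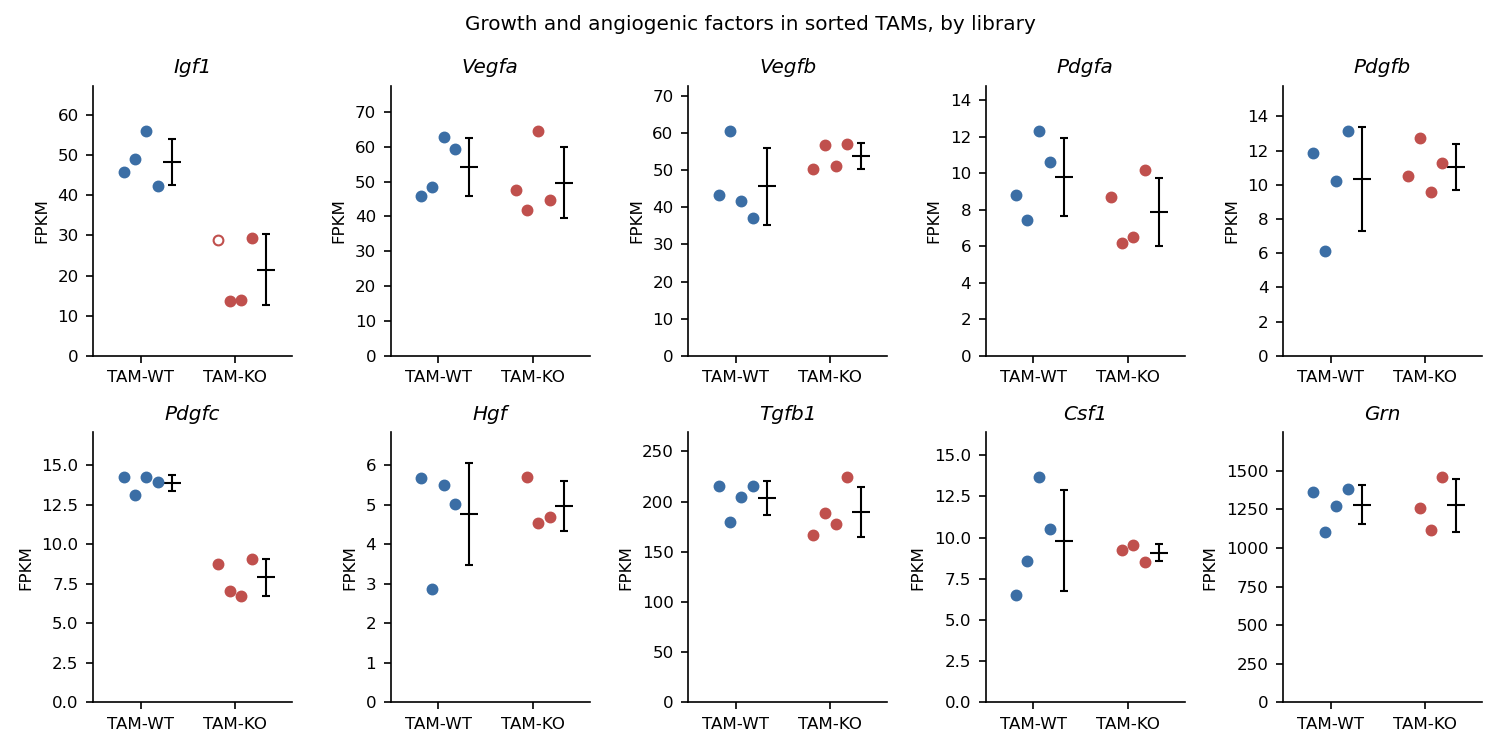
FPKM (vertical axes, linear and starting at 0) of the 10 factors in each TAM-WT (blue) and TAM-KO (red) library, with the group mean and SD in black. The open point is the TAM-KO replicate 1 value of Igf1 from the table of the whole series. Igf1 and Pdgfc are the panels in which the groups do not overlap.

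Of the 10 factors, 2 were lower in TAM-KO and 0 were higher at an adjusted p up to 0.05 (quasi-likelihood test of edgeR, with Benjamini-Hochberg adjustment across all 12412 genes). Among all genes tested, 5.24% were lower and 4.58% higher, 9.81% in either direction. The 2 were Igf1 and Pdgfc, and these were also the only factors whose libraries did not overlap between the groups, with TAM-KO lower, which was the case for 10.1% of all genes tested. Igf1 alone also changed at least 2-fold, as 2.53% of genes did. The other 8 did not pass, their unadjusted p were above 0.05 too, and DESeq2 and limma called the same number in each direction. Of the 10 log2 fold changes 8 were negative, with a median of -0.21, beside 0.0016 for all genes tested. Since the factors were picked as a functional group and are few, these counts describe them and were not tested as a set.

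**Figure D2:**
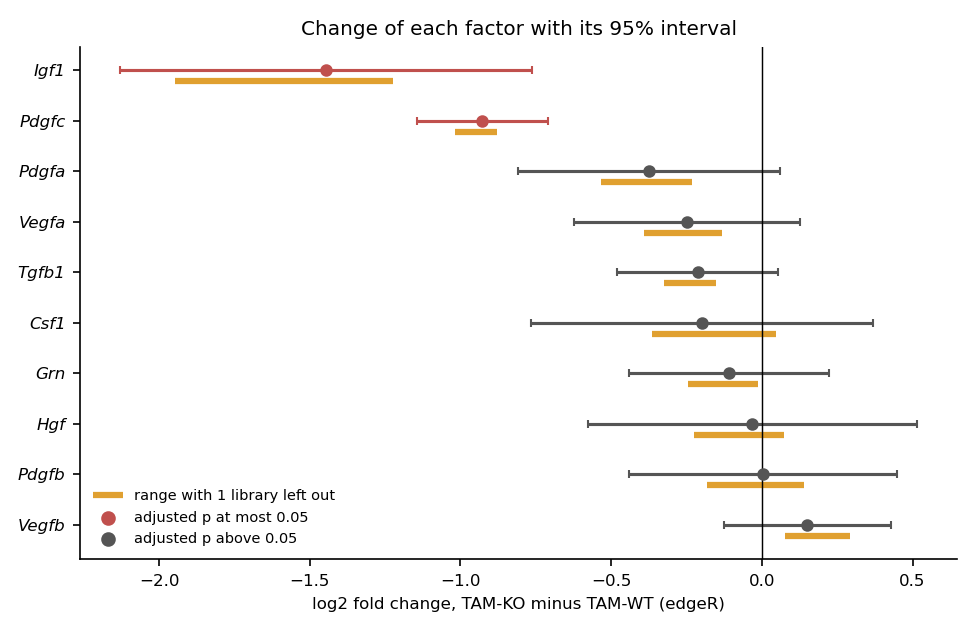
Log2 fold change of each factor, TAM-KO minus TAM-WT, with its 95% interval from edgeR (points and thin bars) and the range of the values obtained with 1 library left out (thick bars). The interval of Pdgfc, -1.15 to -0.71, is narrower than that of Igf1, -2.13 to -0.76, and the intervals of the other 8 factors include 0.

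Igf1 (insulin-like growth factor 1, NCBI gene 16000, chromosome 10, 87858265 to 87937047 on the plus strand of GRCm38.p6) was at 45.7, 49.1, 56.0 and 42.4 FPKM in TAM-WT replicates 1 to 4. In TAM-KO replicates 1 to 4 it was at 28.9, 13.7, 13.9 and 29.4 FPKM, the first of these from the table of the whole series. All TAM-KO values were below all TAM-WT values, and the TAM-KO libraries fell into a pair near 14 FPKM and a pair near 29 FPKM. The mean fell from 48.3 ± 5.81 FPKM in TAM-WT to 21.5 ± 8.88 FPKM in TAM-KO (SD, n = 4 each), which is 44.5% of the TAM-WT mean. The log2 fold change was -1.45 (SE 0.30), a fold of 0.367 with a 95% interval from 0.229 to 0.590 (edgeR adjusted p = 0.0295, on 7 libraries). With TAM-KO replicate 1 filled in, it was -1.28 (SE 0.28, edgeR adjusted p = 0.0331), a fit that was possible only because the authors listed Igf1 in their table. The call was lost without TAM-KO replicate 2, where the adjusted p rose to 0.107, and likewise without TAM-KO replicate 3 (0.102), TAM-WT replicate 3 (0.0819) or TAM-WT replicate 4 (0.0561), though the log2 fold change stayed between -1.95 and -1.22 in the 7 fits that left out a library used for Igf1. Igf1 belongs to a list of procancer genes that the study drew up from these same samples, so its direction is not independent evidence. In RNA from sorted cells in bulk, fewer cells that express a gene and less RNA per cell cannot be told apart.

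Pdgfc (platelet-derived growth factor C, NCBI gene 54635, chromosome 3, 81036416 to 81214040 on the plus strand of GRCm38.p6) is secreted as an inactive dimer that proteases such as tPA activate, and it then binds PDGFRα. It was at 14.2, 13.1, 14.2 and 13.9 FPKM in TAM-WT replicates 1 to 4, and at 8.74, 7.06, 6.73 and 9.09 FPKM in TAM-KO replicates 1 to 4. The TAM-WT libraries lay close together, and the highest TAM-KO library was well below the lowest TAM-WT library. As for Igf1, TAM-KO replicates 1 and 4 were the higher pair and replicates 2 and 3 the lower. The mean was 13.9 ± 0.510 FPKM in TAM-WT and 7.91 ± 1.183 FPKM in TAM-KO (SD, n = 4 each), or 57.0% of the TAM-WT mean. The log2 fold change was -0.93 (SE 0.097), a fold of 0.525 with a 95% interval from 0.452 to 0.611 (edgeR adjusted p = 0.00386, on 8 libraries). By its p Pdgfc ranked 9th of the 12412 genes tested and Igf1 491st, although the change of Igf1 was larger. Pdgfc passed in all 8 fits that left out 1 library, where its adjusted p from edgeR reached 0.0265. Its counts, 355 to 758 a library, were estimated where GENCODE places an antisense transcript, Gm16000, over 425 bases of Pdgfc exons. Strand use in the counting is not stated in the sources used here, so reads of the antisense transcript cannot be told apart from those of Pdgfc.

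The sequences around the annotated starts of these 2 genes, both lower in TAM-KO, are shown. They run from 250 bases before the start to 50 from it (RefSeq, GRCm38.p6, plus strand). Capitals mark the letters of 6 motifs wherever they were found. The motifs, searched on both strands, were GAGGAA, the core bound by the myeloid factor PU.1, TGANTCA of AP-1, ACGTG of the hypoxia response element, CACGTG of the E-box, which contains the former, GGGCGG of Sp1, and TATAAA. The Igf1 start shown lies inside the annotated span of the gene.
Igf1, chr10:87860861-87861160: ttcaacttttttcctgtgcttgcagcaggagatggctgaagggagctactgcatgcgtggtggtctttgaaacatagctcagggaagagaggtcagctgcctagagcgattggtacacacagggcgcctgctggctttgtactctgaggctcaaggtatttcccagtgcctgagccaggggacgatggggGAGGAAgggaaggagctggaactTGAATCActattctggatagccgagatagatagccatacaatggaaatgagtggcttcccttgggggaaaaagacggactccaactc
Pdgfc, chr3:81036166-81036465: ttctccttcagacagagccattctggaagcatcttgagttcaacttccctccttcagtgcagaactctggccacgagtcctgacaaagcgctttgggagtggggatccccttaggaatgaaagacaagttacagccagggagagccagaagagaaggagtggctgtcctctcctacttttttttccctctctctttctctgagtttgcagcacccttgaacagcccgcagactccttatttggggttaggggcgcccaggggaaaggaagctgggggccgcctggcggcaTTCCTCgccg
The capitals in the Igf1 window are a PU.1 core that begins 60 bases before the start and an AP-1 site that begins 37 bases before it. In the Pdgfc window they are a PU.1 core on the opposite strand, 40 bases after the start. Neither window held the letters of the hypoxia core, the E-box, the Sp1 box or the TATA box. Of 32851 promoter windows of this length, 28.3% held the PU.1 core, 7.81% the AP-1 site, 19.6% the hypoxia core, 7.15% the E-box, 35.7% the Sp1 box and 13.6% the TATA box. The GC content was 52.3% in the Igf1 window and 55.0% in the Pdgfc window, beside a median of 52.7% over all windows. The Vegfb and Tgfb1 windows, with 75.3% and 77.0%, held several Sp1 boxes. Both windows of Hgf, which did not pass, were at 51.3% and held a PU.1 core and no Sp1 box. A PU.1 core, a GC content near the median and the lack of an Sp1 box were therefore not particular to the factors that passed. The AP-1 site was found, among the windows of 9 factors, only in that of Igf1. These matches are letters in a window and do not show that a factor binds there.

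Other genes followed the same pattern across libraries. The nearest to Igf1, by the root mean square difference of mean-centered log2 CPM over 7 libraries and 10343 genes, were Pmp22, a membrane protein of peripheral myelin (difference 0.084), Cbr2, a carbonyl reductase (0.14), and Gpr183, an oxysterol receptor (0.15). Pmp22 was at 250.4, 268, 318 and 267 FPKM in TAM-WT replicates 1 to 4 and at 133, 83.9, 78.5 and 156 FPKM in TAM-KO replicates 1 to 4, with the same pairing of the TAM-KO libraries as Igf1. Among the nearest to Pdgfc over 8 libraries and 8331 genes were Ncoa4, the receptor for autophagy of ferritin (difference 0.10), and Snx29, a sorting nexin (0.11). Ncoa4 was at 79.4, 72.1, 82.7 and 91.8 FPKM in TAM-WT and at 49.1, 43.3, 44.99 and 49.1 FPKM in TAM-KO. These 5 genes were selected for their likeness, so their changes were not counted as results.

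**Figure D3:**
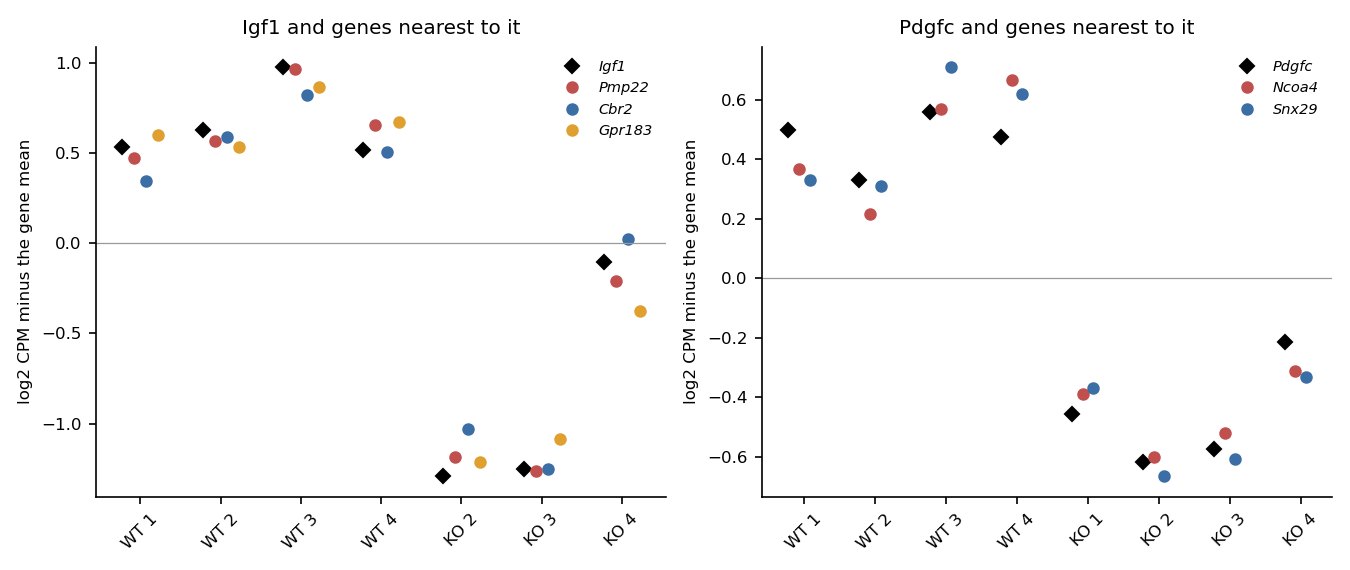
Log2 CPM (counts relative to the TMM-scaled library size) minus the mean of each gene, in 7 libraries for Igf1 and 8 for Pdgfc (black diamonds) with the genes named as nearest to each (colored points). All TAM-WT points lie above 0, and the TAM-KO points lie below it except Cbr2 in TAM-KO replicate 4, at 0.023.

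The other angiogenic factors, Vegfa and Vegfb, did not pass. Vegfa (NCBI gene 22339, chromosome 17) was at 46.0, 48.5, 62.8 and 59.4 FPKM in TAM-WT and at 47.5, 42.0, 64.5 and 44.8 FPKM in TAM-KO. The groups overlapped throughout, and TAM-KO replicate 3 was the highest library of all. Its log2 fold change was -0.25 with a 95% interval from -0.62 to 0.13 (edgeR adjusted p = 0.345), so folds between 0.650 and 1.09 were within the interval. Vegfb (NCBI gene 22340, chromosome 19) was at 43.3, 60.5, 41.5 and 37.0 FPKM in TAM-WT and at 50.4, 56.7, 51.1 and 57.1 FPKM in TAM-KO. TAM-WT replicate 2 was above every TAM-KO library and the other TAM-WT libraries were below all of them. The log2 fold change of Vegfb was 0.15 (95% interval -0.13 to 0.43, edgeR adjusted p = 0.442). Without TAM-WT replicate 2 it was 0.29 and passed, with an adjusted p of 0.0351 from edgeR, so whether Vegfb passed depended on 1 library. That library was also the highest of TAM-WT for melanoma cell markers, and the part of melanoma cells in Vegfb was not tested.

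The classical PDGF chains did not pass. Pdgfa (NCBI gene 18590, chromosome 5), whose product binds PDGFRα, was at 8.79, 7.42, 12.3 and 10.6 FPKM in TAM-WT and at 8.7, 6.17, 6.5 and 10.2 FPKM in TAM-KO. Its groups overlapped, with a log2 fold change of -0.38 (95% interval -0.81 to 0.059, edgeR adjusted p = 0.222), and an antisense transcript, 6330403L08Rik, covers 1081 bases of its exons. Pdgfb (NCBI gene 18591, chromosome 15), which binds PDGFRα and PDGFRβ, was at 11.9, 6.14, 10.2 and 13.2 FPKM in TAM-WT and at 10.5, 12.8, 9.59 and 11.3 FPKM in TAM-KO. The TAM-KO libraries fell inside the TAM-WT range. Its log2 fold change was 0.0045 (95% interval -0.44 to 0.45, edgeR adjusted p = 0.991). The interval of Pdgfc overlapped that of Pdgfa and not that of Pdgfb, and the difference between the chains was not tested.

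Hgf, Tgfb1, Csf1 and Grn did not pass either. Hgf (NCBI gene 15234, chromosome 5), the ligand of MET, was at 5.67, 2.87, 5.51 and 5.02 FPKM in TAM-WT and at 5.69, 4.53 and 4.70 FPKM in TAM-KO replicates 2 to 4. The low TAM-WT replicate 2 held 121 counts, and the log2 fold change was -0.03 (95% interval -0.58 to 0.52, edgeR adjusted p = 0.947). A second transcript, Gm43489, shares 484 bases of exon with Hgf on the same strand. Csf1 (NCBI gene 12977, chromosome 3), the growth factor of macrophages, was at 6.49, 8.60, 13.7 and 10.6 FPKM in TAM-WT and at 9.22, 9.53 and 8.53 FPKM in TAM-KO replicates 2 to 4. The TAM-KO libraries were close together inside the wide TAM-WT range, with a log2 fold change of -0.20 (95% interval -0.77 to 0.37, edgeR adjusted p = 0.625).

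Tgfb1 (NCBI gene 21803, chromosome 7) was at 216, 179, 205 and 215 FPKM in TAM-WT and at 167, 189, 178 and 224 FPKM in TAM-KO. The highest library of all was TAM-KO replicate 4 and the lowest TAM-KO replicate 1. Its log2 fold change was -0.21 (95% interval -0.48 to 0.055, edgeR adjusted p = 0.258). Grn (NCBI gene 14824, chromosome 11) was at 1361, 1106, 1275 and 1380 FPKM in TAM-WT and at 1258, 1114 and 1457 FPKM in TAM-KO replicates 2 to 4. The groups overlapped, and the log2 fold change of -0.11 had a 95% interval from -0.44 to 0.22 (edgeR adjusted p = 0.649), which leaves out a change of 2-fold in either direction.

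The receptors of these ligands moved in both directions. Of 17 receptor genes listed, 16 were tested, and 5 passed, 3 higher and 2 lower in TAM-KO, which is 31.3% beside 9.81% of all genes tested. The median log2 fold change of the list was 0.26. Eng, the TGF-β co-receptor endoglin, was at 24.1 to 38.4 FPKM in TAM-WT and 49.5 to 66.8 FPKM in TAM-KO (log2 fold change 0.84, edgeR adjusted p = 0.0158). Met, the receptor of HGF, was at 59.6, 84.3, 46.1 and 45.8 FPKM in TAM-WT and at 89.7, 128, 112 and 94.5 FPKM in TAM-KO (log2 fold change 0.80, edgeR adjusted p = 0.0351). TAM-WT replicate 2, the highest TAM-WT library for Met, was also the highest of the group for melanoma cell markers. Flt1, which encodes VEGFR1, was at 0.290 to 1.29 FPKM in TAM-WT and at 3.8, 3.42 and 1.45 FPKM in TAM-KO replicates 2 to 4, a log2 fold change of 1.86 (edgeR adjusted p = 0.0366, on these 7 libraries). Its TAM-KO replicate 1 value from the table of the whole series, 0.970 FPKM, lay within the TAM-WT range, and with that library filled in the log2 fold change was 1.59 and did not pass (edgeR adjusted p = 0.065). Endothelial cells express Flt1 and Eng too, and the sum of 8 endothelial markers was 8.29 to 12.5 FPKM in TAM-WT and 11.1 to 16.7 FPKM in TAM-KO replicates 2 to 4. The part of endothelial and melanoma cells in these changes was not tested.

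Lower in TAM-KO were Nrp1, the VEGF co-receptor neuropilin-1, at 63.9 to 66.8 FPKM in TAM-WT and 44.3 to 53.5 FPKM in TAM-KO (log2 fold change -0.54, edgeR adjusted p = 0.0244), and Tgfbr2, the type II TGF-β receptor, at 49.2 to 59.8 FPKM and 42.1 to 46.2 FPKM (log2 fold change -0.43, edgeR adjusted p = 0.0154). Csf1r, the receptor of CSF-1 and the highest of the list, was at 284, 209, 244 and 266 FPKM in TAM-WT and at 238, 213 and 260.0 FPKM in TAM-KO replicates 2 to 4, and did not pass (log2 fold change -0.19, edgeR adjusted p = 0.395). Igf1r and Insr, at which IGF-1 acts, had log2 fold changes of 0.03 and -0.03. Leaving out each library used for a gene in turn, Eng lost its call in 2 of 7 fits, Met in 5 of 7, Flt1 and Nrp1 in 4 of 7 and Tgfbr2 in 3 of 8.

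Genes that hold or release the ligands formed another list. Of 25 genes, 16 were tested, 1 was higher and 2 were lower in TAM-KO, which is 18.8% beside 9.81% of all genes tested, with a median log2 fold change of -0.17. Plau, the urokinase that generates plasmin, fell from 414 to 208 FPKM on average (log2 fold change -1.10, edgeR adjusted p = 0.0203), and it too is on the procancer list the study drew from these samples. Lrrc32, which holds latent TGF-β1 at the cell surface, fell from 0.645 to 0.258 FPKM on average, a low level in both groups. Its log2 fold change was -1.44 (edgeR adjusted p = 0.0302). Nrros, of the same list, was far higher, at means of 149 FPKM in TAM-WT and 147 FPKM in TAM-KO. It did not pass (log2 fold change -0.095, edgeR adjusted p = 0.459). Itgav, the αv chain of integrins that release latent TGF-β1, averaged 24.3 FPKM in TAM-WT and 34.4 FPKM in TAM-KO replicates 2 to 4. Its log2 fold change was 0.39 (edgeR adjusted p = 0.0229, on 7 libraries). With each library left out in turn Plau lost its call in 2 of 8 fits, Lrrc32 in 5 of 8 and Itgav in 3 of 7. Psap, which binds progranulin and was the highest of the list, was at 3203 to 4002 FPKM in TAM-WT and 2807 to 3859 FPKM in TAM-KO, short of the threshold (edgeR adjusted p = 0.235).

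The related ligands and the target genes formed the other lists. Of 16 related ligands, 8 were tested and 0 passed with edgeR, with a median log2 fold change of 0.29. By unadjusted p 1 of the 8 passed with edgeR and with DESeq2. With limma, 2 passed on log2(FPKM + 1) and 3 on log2(FPKM + 0.1), and all of these were higher in TAM-KO. After adjustment, 1 gene passed with DESeq2 and with both fits of limma. It was Vegfc, which drives lymphatic growth and is named after its values were seen, at 1.03 to 2.49 FPKM in TAM-WT and 2.77 to 3.40 FPKM in TAM-KO (log2 fold change 0.84, edgeR adjusted p = 0.054). Of 16 hypoxia targets, listed because hypoxia induces Vegfa, all were tested, 0 were higher and 1 was lower, or 6.25% beside 9.81% of all genes tested, with a median log2 fold change of -0.16. The count of lower genes depended on the tool, with 4 by DESeq2 and 0 by limma after adjustment, and 5 by edgeR at an unadjusted p up to 0.05, where 1 was higher. The gene that passed with edgeR was Pdk1, a kinase that restrains pyruvate oxidation, at 31.1 to 34.6 FPKM in TAM-WT and 24.95 to 30.5 FPKM in TAM-KO (log2 fold change -0.35, edgeR adjusted p = 0.0220). Of 12 genes of the TGF-β/Smad response, all were tested and 0 passed with edgeR, DESeq2 or limma, with a median log2 fold change of -0.24. By unadjusted p 0 passed with edgeR, 1 with DESeq2, which was lower in TAM-KO, and 1 with limma, which was higher. In the 5 lists together 9 of 68 genes passed, or 13.2% beside 9.81% of all genes tested. That number fell to 1 when TAM-WT replicate 3 or either of TAM-KO replicates 2 and 3 was left out and to 4 when TAM-WT replicate 4 was, and rose to 20 on leaving out TAM-WT replicate 2.

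**Figure D4:**
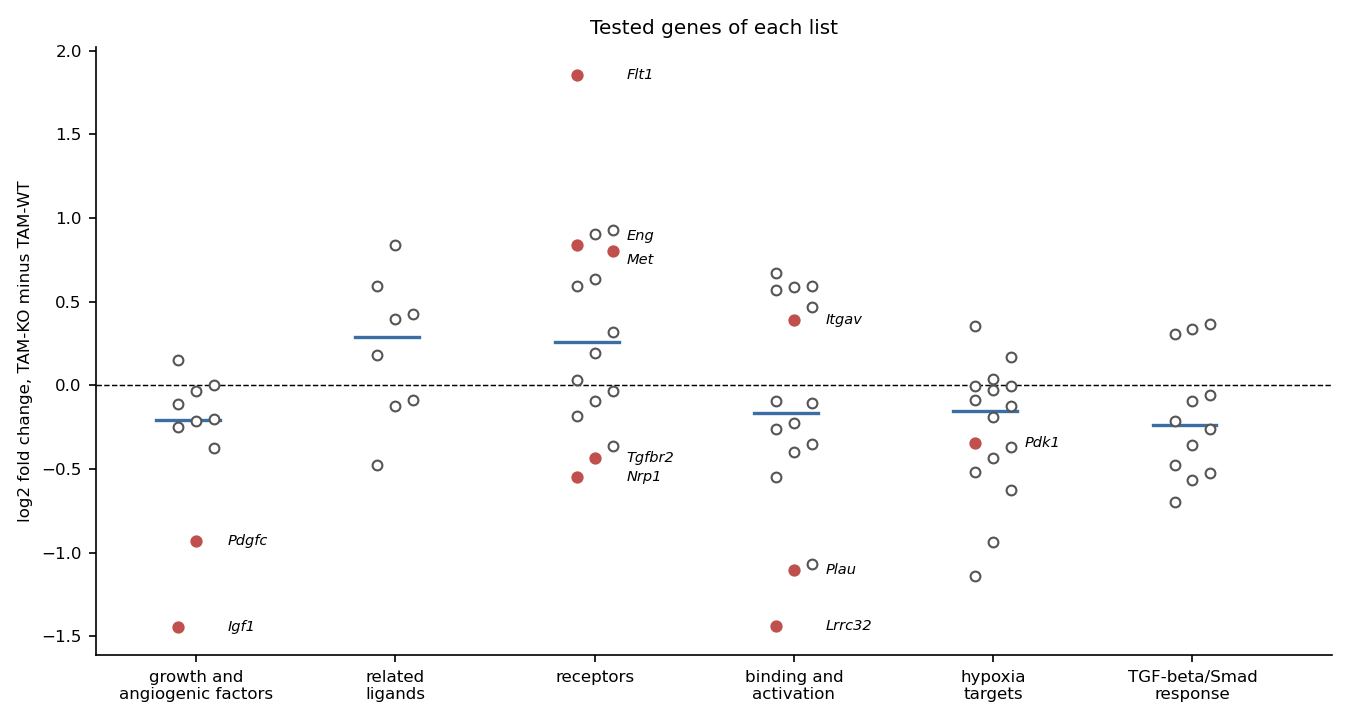
Log2 fold change, TAM-KO minus TAM-WT, of each tested gene of the 10 factors and of the 5 pathway lists. Filled red points passed an adjusted p of 0.05 and are named, open points did not, blue lines are list medians, and the dashed line is the median of all genes tested. Receptors hold the most genes that passed, 5 of 16.

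Markers of other cells differed between the same libraries. In the 7 complete libraries the summed FPKM of 9 T cell markers was 4.41 to 20.1 in TAM-WT and 22.03 to 56.3 in TAM-KO, and that of 8 NK cell markers 0.770 to 13.03 and 11.2 to 41.2. For 8 melanoma cell markers it was 2004 to 4484 and 3904 to 5178, for 7 neutrophil markers 21.4 to 32.3 and 48.8 to 55.6, and for 8 fibroblast markers 2.85 to 8.10 and 12.1 to 20.5. The T cell, neutrophil and fibroblast sums did not overlap between the groups. In TAM-KO the neutrophil markers S100a8 and S100a9 reached 73.5 and 80.0 FPKM, above the whole neutrophil sum of replicates 2 to 4. Both maxima were therefore in TAM-KO replicate 1, which these sums leave out. Without that library the log2 fold change of Pdgfc was -0.93 (edgeR adjusted p = 0.017). In the fibroblast list the difference lay mostly in Thy1, which T cells also express, at a mean of 1.67 FPKM in TAM-WT and 11.3 FPKM in TAM-KO. The collagen genes Col1a1, Col1a2 and Col3a1 and Dcn, which encodes decorin, had means up to 1.31 FPKM in both groups and did not pass (log2 fold changes 0.11, -0.05, -0.61 and -2.05). The sums of 12 macrophage markers, 14951 to 17414 in TAM-WT and 12222 to 15025 in TAM-KO, overlapped, as did those of 8 monocyte markers (650.1 to 1086 and 589 to 659), 8 dendritic cell markers (21.9 to 50.5 and 38.9 to 45.3), 6 B cell markers (4.52 to 7.19 and 5.78 to 11.0) and 8 endothelial markers (8.29 to 12.5 and 11.1 to 16.7). Of these markers Mpo, of neutrophils, was at 0 in all 7 libraries, and Tek, of endothelial cells, in all TAM-WT libraries.

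The part of these cells in the lower Igf1 and Pdgfc was not tested. TAM-WT replicate 2, whose melanoma marker sum of 4484 was above the 3904 of TAM-KO replicate 4, was at 49.1 FPKM for Igf1 and 13.1 FPKM for Pdgfc, against 29.4 and 9.09 FPKM in that TAM-KO library. TAM-WT replicate 1 and TAM-KO replicate 4 were close in their T cell sums, 20.1 and 22.03. Their macrophage sums were 16403 and 15025 and their melanoma sums 2704 and 3904. Their neutrophil sums were 32.3 and 55.6, and their fibroblast sums 7.15 and 12.1. These libraries were at 45.7 and 29.4 FPKM for Igf1 and 14.2 and 9.09 FPKM for Pdgfc. TAM-KO replicate 4 had the lowest T cell and melanoma sums among TAM-KO replicates 2 to 4 and the highest Igf1 and Pdgfc. Without TAM-WT replicate 1 the log2 fold changes were -1.49 for Igf1 and -0.91 for Pdgfc, and both passed (edgeR adjusted p = 0.0374 and 0.00591).

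**Figure D5:**
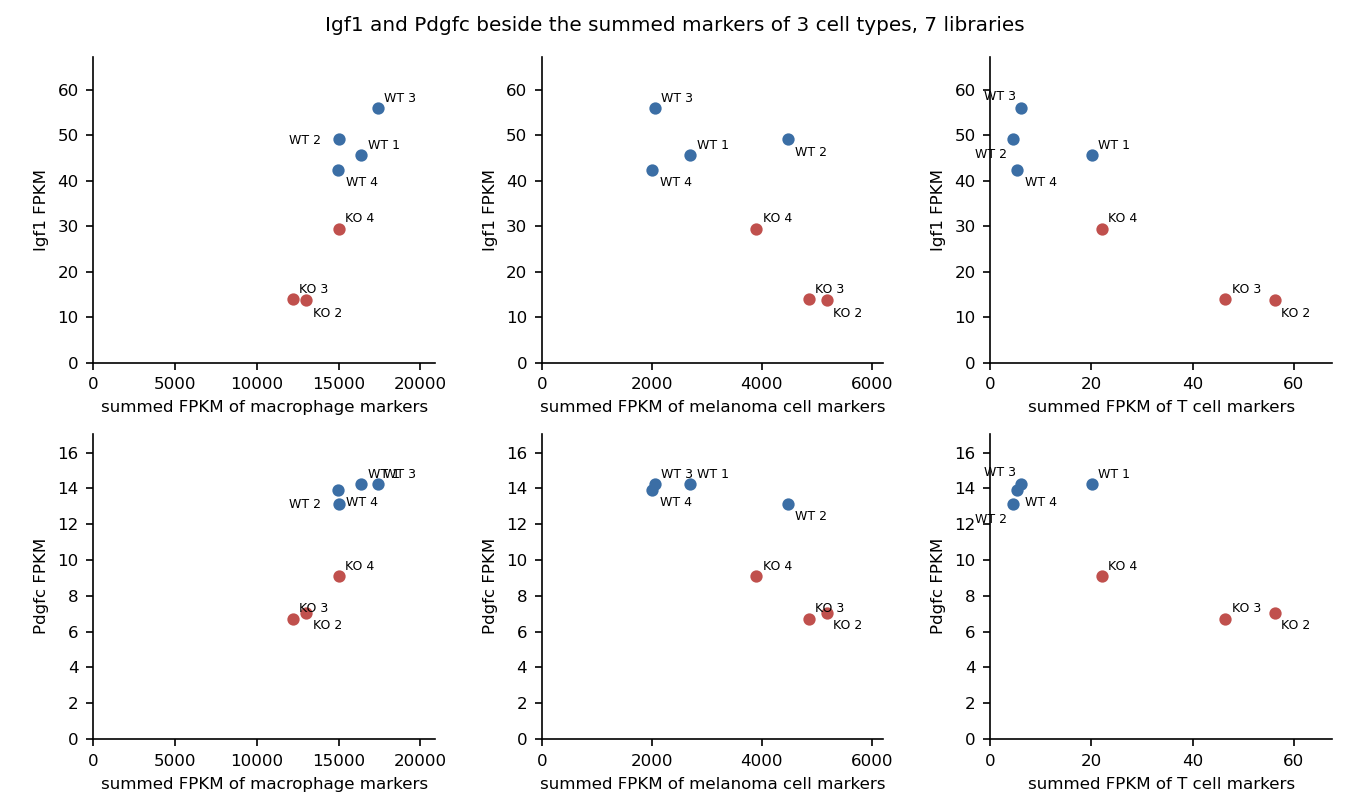
FPKM of Igf1 (top) and Pdgfc (bottom) against the summed FPKM of macrophage, melanoma cell and T cell markers in 4 TAM-WT (blue) and 3 TAM-KO (red) libraries, all axes starting at 0. The TAM-KO points lie below the TAM-WT points for both genes. Along the horizontal axes the groups overlap in macrophage and melanoma cell markers and not in T cell markers.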

How the data were processed

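RNA of sorted TAMs was sequenced by the authors on the BGISEQ-500 platform, and the submitters' processing notes name HISAT2 2.0.4, Bowtie2 2.2.5, RSEM 1.2.12 and the build GRCm38.p6. The authors deposited expected counts, estimated by RSEM and not normalized. They also deposited FPKM values, scaled by gene length and by mapped fragments. Deposited TPM values were not used. The authors' table of the comparison also holds log2 ratios, p-values and q-values of their own, which were not used. Where the table of TAM-KO replicate 1 lacked a gene, its FPKM came from the whole-series table, which listed 1188 of the 4214 genes without a usable value. The counts of the 2 tables were equal in 2808 of 2808 genes held by both for that library. For 629 genes with no value elsewhere the TAM-KO replicate 1 value was not used.

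Libraries were grouped by the genotype in their titles. Counts were rounded, and edgeR 4.0.16 in R 4.3.3 was used (filterByExpr, TMM, glmQLFit and glmQLFTest, Benjamini-Hochberg), on 8 libraries for 9396 genes and on 7 for 3016, with p adjusted over both sets. DESeq2 1.42.0 and limma 3.58.1 served as alternatives, beside other scalings, filters and thresholds, a replicate block and each library left out in turn. Scripts were tested on simulated data. The labels number the libraries without naming mice, and the study gives 4 mice a group for its RNA sequencing of TAMs. The p-values measure the spread between these samples. Same-numbered libraries correlated in their deviations at -0.33, 0.02, -0.23 and 0.26, so the numbers were not taken to pair them. Pairs of libraries of 1 group differed by 6.38 to 31.1 in chi-square per degree of freedom, and none was counted as a repeat.

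The members and lists were chosen with earlier results of these data known. Named are all 10 factors, list genes that passed and the most abundant receptor and binding protein, the 3 genes nearest to each factor that passed or did not overlap (mean CPM at least 5), and Colec11. The sort markers, Igf1r and Insr, Nrros, Vegfc, Mpo, Tek, S100a8, S100a9 and the fibroblast markers were added after their values were seen. A gene that this rule names is not reported here. RefSeq held promoter windows for 9 of the 10 factors.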

Additional observations from a re-analysis of the deposited data

Results flagged for a closer look

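In 27 groups of 4 values (the factors in each group, and the summed cell type markers in TAM-WT), 3 held a library that stood apart, where chance gives about 1 in 20 groups. None was a value of a factor. All 3 were TAM-WT replicate 1, the highest of its group in summed FPKM of T cell markers (20.1, with a gap to the nearest library of 0.887 of the group's range), of NK cell markers (13.03, gap 0.871) and of B cell markers (7.19, gap 0.876). The gaps passed the 95% critical value of Dixon's test for 4 samples. Groups of 3 were not examined. In this library Igf1 was at 45.7 FPKM and Pdgfc at 14.2 FPKM, both within the range of the other TAM-WT libraries.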

How the results depend on the processing

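Pdgfc kept its direction and its call in 10 of 10 other settings and in 8 of 8 fits without 1 library (log2 fold change from -1.02 to -0.88 in the latter). Igf1, tested without TAM-KO replicate 1, kept its call in 9 of 9 other settings that could change its estimate and in 3 of 7 fits that left out a library used for it. The number of factors that passed, 2 of 10, was 1 to 3 with 1 library left out, 1 at an adjusted p of 0.01 (Pdgfc) and 1 with a fold of at least 2 as well (Igf1). The replicate block gave 2 factors, 1080 of all genes and 11 list genes, and changed no call of a factor. Of all genes tested, 1218 passed, and 77 (without TAM-KO replicate 2 or 3) to 2755 (without TAM-WT replicate 2) with 1 library left out, 2253 with DESeq2, 682 on 7 libraries for every gene, 36 at an adjusted p of 0.01 and 314 with a fold of at least 2. List genes that passed numbered 9, and 1 to 20 with 1 library left out, 15 with DESeq2, 0 at an adjusted p of 0.01 and 3 with a fold of at least 2. The cause of these shifts was not tested.

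Direction changed for factors near 0. Hgf turned to 0.087 with scaling to total reads, 0.078 and 0.10 with limma on log2(FPKM + 1) and log2(FPKM + 0.1), 0.085 with the replicate block, and 0.041, 0.072, 0.0073 and 0.033 without TAM-WT replicates 1, 3 and 4 and TAM-KO replicate 3. Pdgfb turned to -0.0047 with TAM-KO replicate 1 filled in, and to -0.18, -0.066 and -0.026 without TAM-WT replicate 2 and TAM-KO replicates 2 and 4. Csf1 turned to 0.046 without TAM-WT replicate 3, and Grn to 1.3e-06 with scaling to total reads. That scaling moved the median of all genes to 0.089 and limma on log2(FPKM + 0.1) to 0.11, and the share of calls that were higher in TAM-KO from 46.6% to 64.4% and 68.4% (69.2% with log2(FPKM + 1)). With 1 library left out Hgf ran from -0.23 to 0.072, Pdgfb from -0.18 to 0.14 and Csf1 from -0.36 to 0.046. With 3 or 4 libraries a group, the 95% intervals of the factors that did not pass were of unequal width, from -0.77 to 0.37 for Csf1 and from -0.13 to 0.43 for Vegfb. Changes of a size within its interval were not excluded for any of these factors.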
